A study of Mus musculus with 14 samples.

Results

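RNA that came down with an antibody against CPEB4 was compared with the input RNA of wildtype neurospheres, to describe which mRNAs were more or less abundant in the precipitate than in the starting material. Neurospheres are floating cultures, here grown from neural stem cells of the subventricular zone of adult mice, a niche beside the lateral ventricle that keeps producing neurons. The comparison used 4 of the 14 samples of the series, with 2 wildtype CPEB4 precipitates and 2 wildtype inputs. Beside them stood 2 wildtype precipitates made with IgG, the control antibody, and 2 CPEB4 precipitates from cells labelled CPEB4-/-. All 8 libraries came from cultured cells with no treatment. Single-cell libraries of neural stem cells cultured with BMP4 or EGF were used apart from these, as a second readout. The sources used here do not give strain, age or the nature of the CPEB4-/- allele. The labels do not say whether replicates were separate cultures or animals, so p-values measure the spread between these samples, which may be technical. Genes were taken as protein-coding by RefSeq annotation. Mitochondrially encoded genes were left out, as were genes that held 1% or more of the counts in both IgG libraries. Of 27144 genes in all, 17911 were used, and 13286 of these had enough counts in the 4 libraries to be tested, while the other 4625 were too low.

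CPEB4 belongs to the cytoplasmic polyadenylation element binding proteins, which bind short U-rich elements in the 3′ untranslated region of mRNAs. Depending on the partners they recruit, these proteins lengthen the poly(A) tail and promote translation, or shorten it and repress translation. The family is known from oocyte maturation and the cell cycle, and from synapses, and CPEB4 is also known for regulating genes associated with autism risk and the response to stress of the endoplasmic reticulum. In immunoprecipitation of RNA-binding proteins, the input gives the level of each RNA before selection and IgG gives what a control antibody brings down.

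The precipitates and the inputs differed in their overall make-up. The inputs held 17466296 and 15918316 counts, of which 85.6% and 85.4% fell on the genes used. The CPEB4 precipitates held 13199456 and 13312121 counts, with 46.1% and 36.8% on these genes, and the IgG libraries held 18.8% and 24.1% there. Most of the remainder lay on 17 genes, among them Cmss1, Filip1l, Zc3h7a, Arhgap21 and the pseudogene Gm42418. These 17 genes took 48.4% and 55.9% of the counts in the CPEB4 precipitates and 75.4% and 70.8% in the IgG libraries, against 0.232% and 0.334% in the inputs. Filip1l lies inside the span of Cmss1, so counts of this pair may come from the same reads. The last genes removed by the 1% limit were Rsph3a, with 1.23% and 1.20% of the IgG counts, and Gm24187, with 1.23% and 1.03%. Just under it, and kept, were Spata5, with 1.11% and 0.971%, and Cd44, with 0.738% and 0.924%. All 37 mitochondrially encoded genes were listed at 0 in both inputs, while they held 11627 and 166877 counts in the CPEB4 precipitates. Small nuclear RNA genes had 115 and 74 counts in the inputs and 103746 and 126653 in the CPEB4 precipitates. The sources used here do not give how the libraries were made and counted, so a difference between fractions and a difference in handling between input and precipitates cannot be told apart. The plot of library make-up shows these shares for all 8 libraries.

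**Figure D1:**
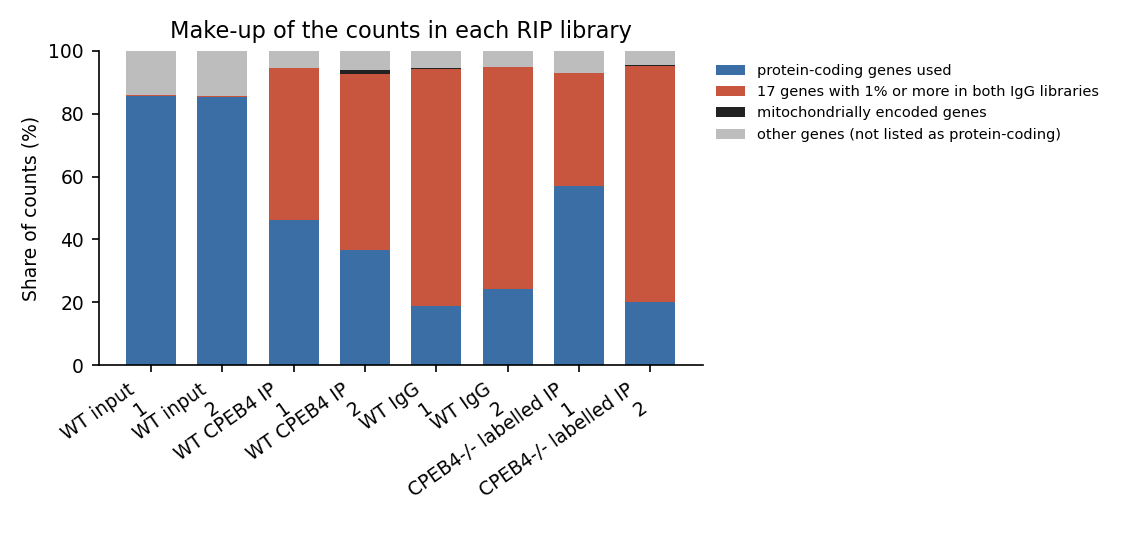
Share of counts (y axis, percent) in each of the 8 RNA immunoprecipitation libraries (x axis), split into the protein-coding genes used, the 17 genes with 1% or more of counts in both IgG libraries, mitochondrially encoded genes and other genes. The genes used hold about 85% of the input counts (85.6% and 85.4%) and 46.1% and 36.8% of the wildtype CPEB4 precipitate counts, and the 17 genes make up most of the rest of the precipitates.

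The neurospheres carried the RNA of neural stem and progenitor cells. Vim, an intermediate filament protein of neural progenitors, stood at 2244 and 2498 CPM (counts scaled to a common library size over the genes used) in the inputs. Fabp7, a lipid-binding protein of radial glia and progenitors, stood at 2269 and 3029 CPM, and Nes, the progenitor filament nestin, at 748 and 919. Summed over 17 progenitor markers, the inputs held 8269 and 9705 CPM. The 15 astrocyte and quiescence markers summed to 2096 and 1924 CPM in the inputs, and 13 neuroblast and young neuron markers to 980 and 936. Sums were 532 and 529 CPM for 11 mature neuron markers and 345 and 295 CPM for 12 oligodendrocyte markers. The 9 endothelial and mural markers summed to 7.74 and 6.15 CPM there, and 10 microglia and macrophage markers to 54.0 and 49.9 CPM, with Aif1, C1qb, Ptprc and Lyz2 at 0 in both inputs.

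Most of the genes tested differed between precipitate and input. At an adjusted p below 0.05 (edgeR quasi-likelihood test, Benjamini-Hochberg over 13286 genes), 4207 genes were higher in the CPEB4 precipitate (31.7% of those tested) and 4569 were lower (34.4%), together 66.1%. The remaining 4510 did not pass. The median log2 fold change was 2.06 among the higher genes and -1.76 among the lower ones, and -0.11 over all genes tested. A log2 difference of 4 or more, in addition to the test, was met by 515 higher and 87 lower genes. Both precipitates lay above both inputs for 5367 genes (40.4%) and below them for 5619 (42.3%), and the groups overlapped for 2300. Scaling by library totals alone moved the median of all genes from -0.11 to -0.45 and gave 3390 higher and 5426 lower genes, so that 38.5% of the genes called were higher instead of 47.9%. Directions below are therefore relative to the bulk of the genes used. Since RNA in a fraction is measured as a share of its library, a change in an RNA and an opposite change in the other RNAs of that library cannot be told apart.

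**Figure D2:**
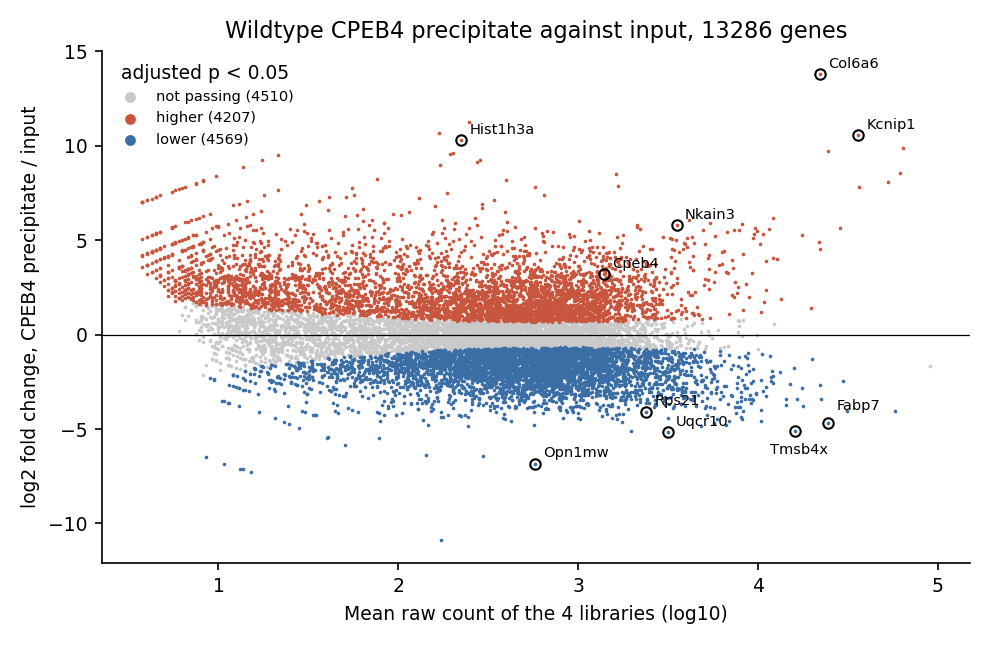
Each point is 1 of the 13286 genes tested, with the mean raw count of the 4 libraries (x axis, log10) and the log2 fold change of the CPEB4 precipitate over input (y axis). Red points are the 4207 genes higher and blue points the 4569 genes lower at an edgeR adjusted p below 0.05, and both directions are filled over the whole range of counts.

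The transcript of Cpeb4 itself (ENSMUSG00000020300, mm10 chromosome 11, 31870104 to 31935635) was higher in the precipitates. Its raw counts were 808 and 628 in the inputs and 3109 and 1025 in the CPEB4 precipitates, and on the scaled level 39.8 and 37.5 against 539 and 207 CPM. Both precipitates lay above both inputs (log2 fold change 3.21, SE 0.41, edgeR adjusted p = 2.36e-06). The IgG libraries had 147 and 294 CPM, which overlaps the CPEB4 precipitates, and the difference from IgG did not pass (log2 fold change 0.73, SE 0.44, edgeR adjusted p = 0.359). The sign of that difference rested on the first CPEB4 precipitate: without it the log2 fold change was -0.069. In the precipitates labelled CPEB4-/- the gene stood at 562 and 646 CPM, at or above the wildtype precipitates, so counts over the gene did not mark these libraries as lacking it. The sources used here do not say which part of the gene was altered.

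The family and its partners in poly(A) tail control split by gene. Of 30 tested genes of the CPEB family, of cytoplasmic polyadenylation and of deadenylation, 13 were higher than input and 3 were lower. These are 43.3% and 10.0%, against 31.7% and 34.4% of all genes tested. The number of lower genes became 8 with library totals alone. The median log2 fold change was 0.22, which became -0.12 with library totals alone and 0.39 and 0.44 without the first and the second input. Cpeb2 and Cpeb3, the paralogs closest to Cpeb4, were both higher. Cpeb2 had 18.0 and 11.2 CPM in the inputs and 158 and 69.1 CPM in the precipitates (log2 fold change 2.90, SE 0.39, edgeR adjusted p = 4.25e-06). Cpeb3 went from 12.3 and 14.8 to 133 and 74.6 CPM (log2 fold change 2.89, SE 0.34, edgeR adjusted p = 1.1e-06). Tent2, the cytoplasmic poly(A) polymerase GLD-2, had the largest difference of the list, with 12.6 and 11.5 CPM in the inputs and 162 and 95.7 in the precipitates (log2 fold change 3.36, SE 0.34, edgeR adjusted p = 2.04e-07). Deadenylase components were found on both sides, with Cnot1, the scaffold of the CCR4-NOT complex, at 1.87 and Pan3, an adaptor of the PAN2-PAN3 deadenylase, at 2.21, while Cnot8, a catalytic subunit, was at -1.55 on the log2 scale. Cpeb1, the founding member, had 44.9 and 32.2 against 26.0 and 23.0 CPM and did not pass (edgeR adjusted p = 0.0539). Pabpc1, the cytoplasmic poly(A) binding protein, also did not pass, at -0.30. Against IgG 0 of the 30 genes passed by edgeR and 0 by DESeq2, with 2 higher and 1 lower at an unadjusted p below 0.05, where the list median was 0.18 and 0.613% of all 11754 genes tested were higher and 1.24% lower. Of these 11754 genes, 2512 had an unadjusted p below 0.05 in either direction.

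Genes described elsewhere as targets of CPEB proteins did not share a direction. Among 17 tested genes of this kind 5 were higher and 9 lower than input, with a median of -0.90. These are 29.4% and 52.9%, where 31.7% of all genes tested were higher and 34.4% lower. Without the first CPEB4 precipitate 3 were higher. The higher ones were Grin2a, Gria1 and Gria2, which encode subunits of glutamate receptors, Map2, a dendritic microtubule protein, and Wee1, a kinase that restrains entry into mitosis. Grin2a had 0.690 and 0.119 CPM in the inputs and 44.4 and 37.5 CPM in the precipitates (log2 fold change 6.50, SE 0.52, edgeR adjusted p = 2.47e-08), and its IgG levels of 16.6 and 1.56 CPM lay below both precipitates (edgeR adjusted p = 0.071 against IgG). For Map2 the levels were 281 and 416 against 2054 and 1237 CPM (log2 fold change 2.19, SE 0.40, edgeR adjusted p = 0.000114). The lower ones were led by cell cycle genes: Ccne1 (-2.06), Ccna2 (-1.97), Cdk1 (-1.62), Aurka (-1.61) and Ccnb1 (-0.90), which encode cyclins and mitotic kinases. Ccnb1, cyclin B1, had 79.6 and 83.8 CPM in the inputs and 45.1 and 45.8 in the precipitates (edgeR adjusted p = 0.011). Myc, a growth-promoting transcription factor, was lower as well, at 110.1 and 118 against 56.7 and 59.3 CPM (log2 fold change -1.03, SE 0.29, edgeR adjusted p = 0.00462). Against IgG 0 of the 17 passed by edgeR and 0 by DESeq2, with 2 higher and 6 lower at an unadjusted p below 0.05. Of all 11754 genes tested against IgG, 2512 had such a p in either direction.

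Among the gene lists, regulators of transcription and chromatin were the most uniform group above input. All lists were chosen with earlier results of these data known, so such shares are descriptions and no independent support. Of 31 tested genes 30 were higher and 0 lower, against 31.7% and 34.4% of all genes tested, with a median log2 fold change of 2.28. DESeq2 and the unadjusted edgeR p below 0.05 gave the same counts of 30 and 0. Sox5, a transcription factor of neural development, had 38.2 and 32.1 CPM in the inputs and 1272 and 1063 CPM in the precipitates (log2 fold change 5.00, SE 0.41, edgeR adjusted p = 2.79e-08). Crebbp, a histone acetyltransferase, had 25.8 and 17.7 against 416 and 365 CPM (log2 fold change 4.10, SE 0.37, edgeR adjusted p = 6.21e-08). In both genes the precipitate libraries lay more than 10 times above the inputs. Autism risk genes showed the same direction, with 35 of 42 higher, 1 lower and a median of 1.93. Grin2b, a subunit of the NMDA receptor, was at 0.937 and 0.896 CPM in input and 31.6 and 27.6 CPM in the precipitate (log2 fold change 4.94, SE 0.41, edgeR adjusted p = 3.28e-08). Foxp1, a forkhead transcription factor, was at 7.79 and 6.93 against 112 and 89.5 CPM (log2 fold change 3.71, SE 0.33, edgeR adjusted p = 6.39e-08). Fmr1, the fragile X protein gene, did not pass, with 80.9 and 91.1 CPM in the inputs and 119.8 and 89.9 in the precipitates. Against IgG the medians of both groups were smaller, 0.53 for the regulators and 0.34 for the autism risk genes, and edgeR called 0 members of either group. At an unadjusted p below 0.05, 9 of 31 regulators and 8 of 41 autism risk genes were higher and 0 lower, and DESeq2 called 3 and 2 higher. Of all 11754 genes tested against IgG, 2512 had an unadjusted p below 0.05 in either direction. DESeq2 called 268 of all genes higher and 314 lower.

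RNA-binding proteins that act on mRNA stability and translation were higher in 15 and lower in 5 of 33 tested genes, or 45.5% and 15.2%, against 31.7% and 34.4% of all genes tested. Their median of 0.54 was 0.33 without the first CPEB4 precipitate. Against IgG 0 of the 33 were higher and 1 lower by edgeR, and DESeq2 called 2 higher and 2 lower. Of all genes tested against IgG, 0.613% were higher and 1.24% lower by edgeR. Tnrc6b, a scaffold of microRNA silencing, had 55.3 and 60.0 CPM in the inputs and 554 and 477 in the precipitates (log2 fold change 3.10, SE 0.34, edgeR adjusted p = 4.97e-07). Rbfox2, a splicing regulator, had 43.6 and 39.7 against 494 and 307 CPM (log2 fold change 3.21, SE 0.36, edgeR adjusted p = 5.27e-07). Msi2 (Musashi 2), Celf2, Elavl2 and Ago3 were also higher, between 2.50 and 3.30 on the log2 scale. The lower members were Pcbp1 (-2.95), Pcbp2 (-1.42), Khsrp (-1.11), Fxr2 (-1.01) and G3bp1 (-0.82), and Pcbp1, a poly(C) binding protein, was also lower than IgG (log2 fold change -1.21, SE 0.27, edgeR adjusted p = 0.0482). Notch pathway genes divided into 8 higher and 5 lower of 20 (40.0% and 25%), and 5 were higher without the second input or with library totals alone. Their median of 0.07 turned to -0.27 with library totals alone and to -0.12 without the filter on low counts. Maml2 and Maml3, coactivators of Notch transcription, were higher, at 2.99 and 4.35, as was Numb, a Notch inhibitor, at 2.37. The effectors Hes1 (-1.89), Hes5 (-2.16) and Hey1 (-2.04) were lower. Against IgG 0 of the 20 Notch genes were higher and 2 lower by edgeR, and 0 and 1 by DESeq2. In the APP family and its processing enzymes 3 of 16 were higher and 6 lower, which is 18.8% and 37.5%. Apba1, an adaptor that binds APP, rose from 4.68 and 3.29 to 50.8 and 51.2 CPM (log2 fold change 3.61, SE 0.35, edgeR adjusted p = 1.25e-07) and also lay above the IgG levels of 17.2 and 20.2 CPM (log2 fold change 1.43, SE 0.30, edgeR adjusted p = 0.0436). App itself did not pass, at 159.5 and 183 against 268 and 249 CPM, and its homolog Aplp1 was lower, at 26.4 and 30.0 against 2.43 and 8.06 CPM (log2 fold change -2.50, SE 0.44, edgeR adjusted p = 6.82e-05).

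Genes of respiration and of the translation machinery were the largest coherent groups below input. Of 79 nuclear genes of oxidative phosphorylation 72 were lower and 1 was higher, Cox4i2, where 34.4% of all genes tested were lower and 31.7% higher. Their median log2 fold change was -3.04, and no member was higher when any 1 of the 4 libraries was left out. Uqcr10, a small subunit of complex III, had 346 and 325 CPM in the inputs and 8.84 and 10.7 CPM in the precipitates (log2 fold change -5.16, SE 0.38, edgeR adjusted p = 9.98e-09). Atp5e, a subunit of ATP synthase, had 185 and 190.0 against 7.28 and 8.26 CPM (log2 fold change -4.65, SE 0.35, edgeR adjusted p = 1.47e-08). For both genes the inputs were more than 20 times the precipitates. The IgG libraries were also low, at 40.0 and 23.3 CPM for Uqcr10 and 31.4 and 27.6 CPM for Atp5e, yet above the CPEB4 precipitates. Against IgG 10 of these genes were lower and 0 higher (61 and 0 at an unadjusted edgeR p below 0.05, 19 and 0 by DESeq2), with a median of -1.01. Of 79 cytosolic ribosomal protein genes 65 were lower and 7 higher, with a median of -2.42. Rps2, a protein of the small subunit, had 621 and 868 CPM in the inputs and 32.2 and 33.3 CPM in the precipitates (log2 fold change -4.56, SE 0.39, edgeR adjusted p = 4.2e-08). Rps21 had 250.2 and 257 against 15.1 and 16.1 CPM (log2 fold change -4.08, SE 0.34, edgeR adjusted p = 3.62e-08). The 7 higher members, Rpl23a, Rpl9, Rpl3, Rps13, Rps28, Rps12 and Rps27a, ran from 1.01 to 2.11, and all 7 had negative differences from IgG. Ribosomal protein genes have many processed pseudogenes, and the sources used here do not say how reads shared with them were counted. Against IgG 22 ribosomal protein genes were lower and 0 higher (76 and 0 at an unadjusted edgeR p below 0.05, 54 and 0 by DESeq2), with a median of -1.19. Of all 11754 genes tested against IgG, edgeR called 1.24% lower and 0.613% higher. An unadjusted edgeR p below 0.05 was found for 2512 of them in either direction, and DESeq2 called 314 lower and 268 higher.

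Genes of translation initiation and elongation, the endoplasmic reticulum, glycolysis, the lysosome and S phase were mostly lower as well. Over all genes tested the shares were 34.4% lower and 31.7% higher. The other groups of this paragraph were less uniform. Translation initiation and elongation genes were lower in 30 and higher in 3 of 39 (median -1.81), with Eef1b2, an elongation factor subunit, at 418 and 498 CPM in input and 32.1 and 54.0 in the precipitate (log2 fold change -3.47, SE 0.37, edgeR adjusted p = 3.51e-07). Chaperones and unfolded protein response genes of the endoplasmic reticulum were lower in 21 and higher in 2 of 27 (median -1.75). Pdia6, a disulfide isomerase, had 150.3 and 184 CPM in the inputs and 23.1 and 28.8 in the precipitates (log2 fold change -2.74, SE 0.32, edgeR adjusted p = 8.94e-07). Glycolysis genes were lower in 14 and higher in 0 of 18 by edgeR (median -1.59), with 2 higher by DESeq2 and at an unadjusted edgeR p below 0.05. One of the lower genes was Ldha, lactate dehydrogenase, at 402 and 421 against 43.2 and 59.5 CPM (log2 fold change -3.06, SE 0.35, edgeR adjusted p = 6.51e-07). Lysosomal genes were lower in 17 and higher in 2 of 23 (median -1.66, and 1 higher with either CPEB4 precipitate or the first input left out), with Npc2, a cholesterol carrier, at 367 and 416 against 38.8 and 49.4 CPM. In S phase genes 18 of 23 were lower and 0 higher by edgeR (15 and 0 by DESeq2, 20 and 0 at an unadjusted edgeR p below 0.05, median -1.24), including Rrm2, a ribonucleotide reductase subunit, at -2.40. G2/M genes were less uniform, with 9 lower and 4 higher of 24 (37.5% and 16.7%). Cdc20, an activator of the anaphase-promoting complex, had 68.5 and 102 against 18.2 and 19.6 CPM (log2 fold change -2.23, SE 0.32, edgeR adjusted p = 9.68e-06), while the centromere proteins Cenpe (1.35) and Cenpf (1.39) and the kinesin Kif20b (1.79) were higher. Immediate early genes, which respond within minutes to stimulation or handling, were lower in 11 and higher in 1 of 24 (45.8% and 4.17%). These counts were 7 and 0 without the second CPEB4 precipitate, 9 and 3 without the first input and 4 and 1 in the fit on all 8 libraries, and the median of -0.68 was -0.20 without the first input. Jund stood at 322 and 382 against 71.6 and 58.5 CPM (log2 fold change -2.49, SE 0.33, edgeR adjusted p = 3.7e-06), and Egr3 was the higher one (log2 fold change 2.52, SE 0.59, edgeR adjusted p = 0.0011). Fosb, with 20.3 and 0.717 CPM in the inputs and 23.1 and 31.8 in the precipitates, did not pass against input (edgeR adjusted p = 0.115), and was higher than IgG at 1.85 and 2.72 CPM (log2 fold change 3.52, SE 0.46, edgeR adjusted p = 0.0156). Extracellular matrix genes were higher in 8 and lower in 3 of 20 (40.0% and 15.0%), with a median of 0.36 that was -0.06 without the second CPEB4 precipitate. Only 4 of them were higher without the first CPEB4 precipitate and 5 without the second or without the first input. The 358 tested Zfp zinc finger genes had 115 higher, or 32.1%, which is near the 31.7% of all genes, and 64 lower, or 17.9%. Their lower genes numbered 34 and 41 without the first and the second CPEB4 precipitate, and their median of 0.25 was -0.08 with library totals alone.

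**Figure D3:**
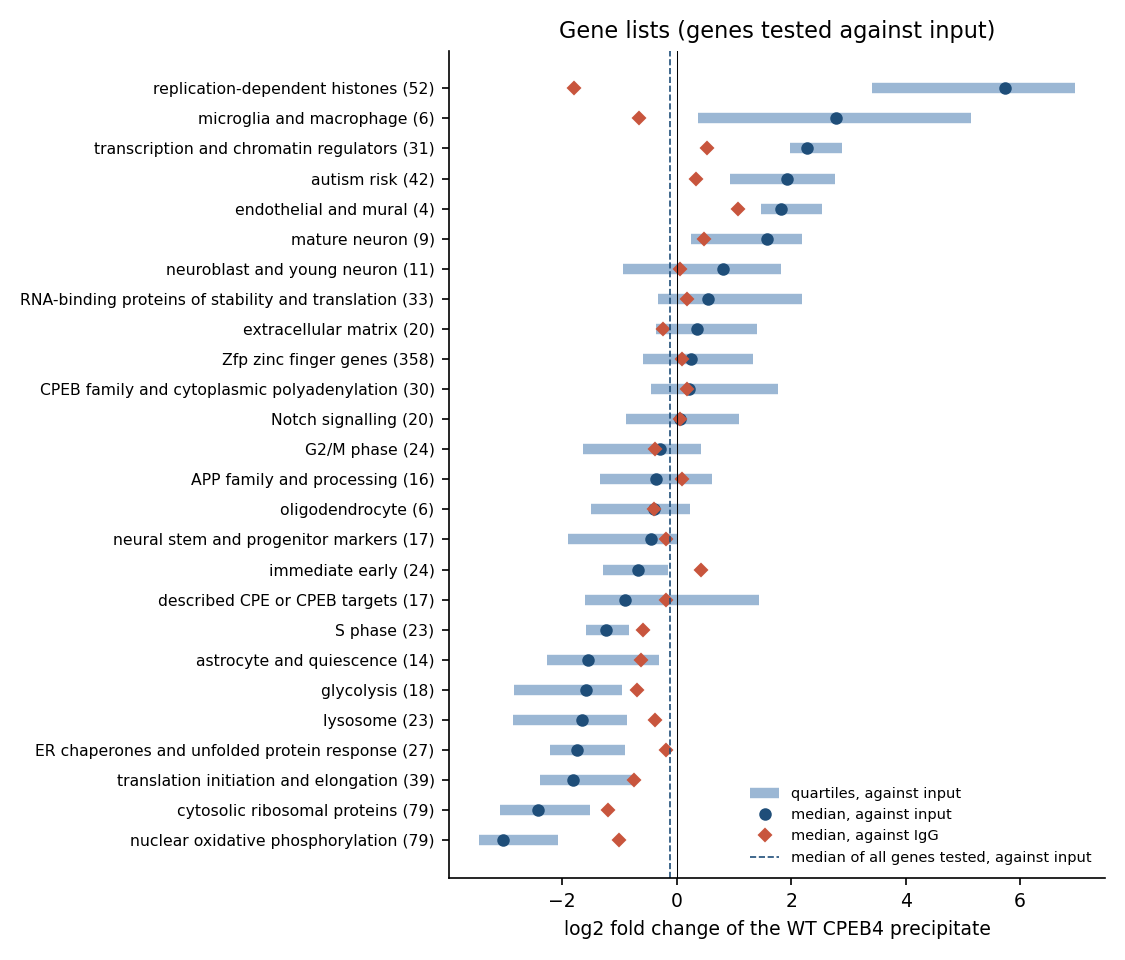
Median log2 fold change (x axis) of 26 gene lists (y axis, number of genes tested against input in parentheses), against input (circles, with bars from the lower to the upper quartile) and against IgG (diamonds), with the median of all genes tested against input as a dashed line at -0.11. Histones lie farthest to the right against input (5.73) and to the left against IgG (-1.80), and nuclear oxidative phosphorylation lies farthest to the left against input (-3.04).

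Markers of cell types moved in both directions. Among 17 progenitor markers 8 were lower and 4 higher than input (median -0.44), or 47.1% and 23.5%, against 34.4% and 31.7% of all genes tested. The 4 higher became 1 without the second CPEB4 precipitate, without the second input or with library totals alone. Fabp7 had 2269 and 3029 CPM in the inputs and 109 and 108 CPM in the precipitates (log2 fold change -4.66, SE 0.44, edgeR adjusted p = 9.17e-08), and Vim 2244 and 2498 against 210.5 and 248 CPM (log2 fold change -3.43, SE 0.41, edgeR adjusted p = 1.06e-06). In contrast Egfr, the EGF receptor that marks activated stem cells, had 306 and 323 CPM in the inputs and 2308 and 1883 in the precipitates (log2 fold change 2.68, SE 0.39, edgeR adjusted p = 9.94e-06). The proliferation marker Mki67 (1.19), Prom1 (1.65) and the receptor Notch1 (0.84) were higher too. Against IgG 0 of the 17 progenitor markers were higher and 1 lower by edgeR, and 0 and 4 by DESeq2. Astrocyte and quiescence markers were lower in 9 and higher in 1 of 14, while without the first CPEB4 precipitate 5 of 15 and without the first input 6 of 14 were lower. Among them Apoe, a lipid carrier, was at 1229 and 962 against 30.3 and 66.7 CPM (log2 fold change -4.56, SE 0.45, edgeR adjusted p = 1.48e-07). Aldoc, an aldolase of astrocytes, was lower than both input (log2 fold change -3.12, SE 0.34, edgeR adjusted p = 3.82e-07) and IgG (log2 fold change -1.65, SE 0.31, edgeR adjusted p = 0.0358). Mature neuron markers were higher in 5 and lower in 0 of 9, with the same counts by DESeq2 and at an unadjusted edgeR p below 0.05. Against IgG 0 of 8 mature neuron markers and 0 of 8 neuroblast and young neuron markers passed by edgeR or DESeq2. Rbfox3, the neuronal nuclear protein NeuN, had 1.97 and 1.37 CPM in the inputs and 15.3 and 31.4 CPM in the precipitates (log2 fold change 3.72, SE 0.45, edgeR adjusted p = 1.22e-06). Nrxn3, a presynaptic adhesion protein on the neuroblast list, had 25.1 and 12.5 against 714 and 437 CPM (log2 fold change 4.87, SE 0.44, edgeR adjusted p = 6.95e-08). Neuroblast and young neuron markers were higher in 4 and lower in 3 of 11. Their median of 0.81 was 0.53 without the first input and 0.25 without the second, and 1 was lower with either CPEB4 precipitate or the first input left out. Oligodendrocyte markers were lower in 2 and higher in 0 of 6 by edgeR, with the same counts by DESeq2 and at an unadjusted edgeR p below 0.05, and their median of -0.40 was 0.17 without the first input. Of 4 tested endothelial and mural markers 3 were higher, and 2 were with either CPEB4 precipitate left out. Of 6 tested microglia and macrophage markers 3 were higher and 1 lower, with a median of 2.78 that was 0.33 without the second CPEB4 precipitate. Against IgG 4 of them were tested, with a median of -0.66. The 10 summed microglia and macrophage markers came to 50.3 and 57.8 CPM in the CPEB4 precipitates and 57.2 and 57.2 in the IgG libraries. The 1 marker of this list lower than input was Csf1r, the receptor that defines macrophages (-2.91). The 9 endothelial and mural markers summed to 21.8 and 38.7 CPM in the CPEB4 precipitates, and Abcc9 was at 0 in both inputs. Of 142 olfactory receptor genes 6 were tested, of which 2 were higher and 1 lower.

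Replication-dependent histone genes, which supply new nucleosomes in S phase and whose mRNAs mostly end in a stem loop instead of a poly(A) tail, were the group farthest above input. Of 52 tested genes 48 were higher and 2 lower, Hist3h2ba and Hist2h2be, with a median log2 fold change of 5.73. The labels give polyA RNA as the molecule for these libraries. Hist1h3b had 0.592 and 0.358 CPM in the inputs and 125 and 172 CPM in the CPEB4 precipitates (log2 fold change 8.18, SE 0.45, edgeR adjusted p = 4.59e-10). Hist1h4a had 0.197 and 0.119 against 83.9 and 131 CPM (log2 fold change 9.23, SE 0.51, edgeR adjusted p = 4.59e-10). For genes with at most 3 input counts a ratio of scaled counts was taken, and for Hist1h4c it was 3423, with a 95% counting interval from 613 to 135347. For Hist1h3a the ratio was 1543, with an interval from 426 to 12758. The IgG libraries were higher still, at 646 and 354 CPM for Hist1h3b and 484 and 230.3 CPM for Hist1h4a, above both CPEB4 precipitates. Of the 51 histone genes tested against IgG 43 were lower in the CPEB4 precipitate and 0 higher (50 and 0 by DESeq2 and at an unadjusted edgeR p below 0.05), with a median of -1.80, where 1.24% of all genes were lower. Copies of these genes are nearly identical in sequence, so the split of counts among them is uncertain.

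The genes named here for the largest differences above input were all higher still with IgG. Named by size among genes with a mean of 50 or more counts, they were the histone genes Hist1h4c, Hist1h4f, Hist1h3a, Hist1h3e, Hist1h4n, Hist1h4a and Hist1h3c, and Col6a6, Kcnip1, Spata5, Tmem56 and Cd44. Col6a6, a collagen VI chain (mm10 chromosome 9, 105689417 to 105828246), had 0.493 and 0.597 CPM in the inputs, 8156 and 8224 in the CPEB4 precipitates and 42796 and 31267 in the IgG libraries. It was higher than input (log2 fold change 13.80, SE 0.72, edgeR adjusted p = 4.59e-10) and lower than IgG (log2 fold change -2.17, SE 0.48, edgeR adjusted p = 0.0482). The single-cell libraries of cultured neural stem cells, 1 with BMP4 and 1 with EGF, held no count of Col6a6. Kcnip1, a potassium channel interacting protein, had 9.17 and 8.18 CPM in the inputs and 11896 and 15149 in the precipitates (log2 fold change 10.55, SE 0.67, edgeR adjusted p = 2.14e-09). Its IgG levels of 26634 and 19106 CPM were above both CPEB4 precipitates. Cd44, a hyaluronan receptor, had 49.8 and 71.1 CPM in the inputs, 14967 and 31920.0 in the CPEB4 precipitates and 45643 and 40508 with IgG (log2 fold change 8.55, SE 0.70, edgeR adjusted p = 2.86e-08 against input). Spata5 and Tmem56 showed the same order of the groups, with log2 fold changes of 9.88 and 9.70 over input and -1.18 and -1.48 against IgG. The Zfp gene of smallest p, Zfp791, repeated it, with 1.28 and 0.478 CPM in the inputs, 130.2 and 306 in the CPEB4 precipitates and 2408 and 1045 with IgG. The gene 4930447A16Rik was left out of these names, although its difference over input was larger than that of Cd44, and it went the other way. Its log2 fold change was 9.00 over input and 1.37 over IgG (edgeR adjusted p = 0.0479 against IgG). Over all genes higher than input, 3747 were tested against IgG: 57 were lower than IgG, 70 were higher and 3620 did not pass.

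The genes with the largest differences below input, named by size under the same limit of counts, were Aldoart2, Opn1mw, Car1, Prdx6b, Zfp616, Cited1, Uqcr10, Pde6a, Tmsb4x, Vkorc1, Vmn2r60 and Mt3. Tmsb4x, an actin-binding thymosin, had 1746 and 1695 CPM in the inputs and 48.7 and 55.2 in the CPEB4 precipitates (log2 fold change -5.11, SE 0.42, edgeR adjusted p = 3.23e-08). Mt3, a metallothionein, had 489 and 552 against 15.9 and 22.4 CPM (log2 fold change -4.82, SE 0.39, edgeR adjusted p = 2.56e-08). Both were also lower than IgG, at -1.22 and -1.57 on the log2 scale (edgeR adjusted p = 0.0491 and 0.0407). Opn1mw, a cone opsin, had 55.9 and 69.1 CPM in the inputs and 0.693 and 0.403 in the precipitates (log2 fold change -6.84, SE 0.48, edgeR adjusted p = 6.08e-09), and 3 and 1 counts in the BMP4 and EGF single-cell libraries. Car1, a carbonic anhydrase, had 30.1 and 33.6 against 0.347 and 0.403 CPM (log2 fold change -6.43, SE 0.52, edgeR adjusted p = 2.56e-08) and 0 and 1 single-cell counts. Pde6a, a photoreceptor phosphodiesterase, had 178 and 248 against 5.72 and 7.05 CPM (log2 fold change -5.11, SE 0.38, edgeR adjusted p = 1.13e-08) and 4 and 16 single-cell counts. Zfp616 and the vomeronasal receptor Vmn2r60 held no single-cell count, and Aldoart2 had 4 and 4. Others were detected there, with 68 and 32 counts for Prdx6b, 105 and 518 for Cited1 and 1244 and 1643 for Vkorc1. The single-cell libraries read the 3′ end of transcripts, so the levels of both kinds of library are not on a common scale. Aldoart2, an aldolase retrogene, had 12.0 and 26.6 CPM in the inputs and no count in the CPEB4 precipitates, at least 66.7-fold lower against a floor of 3 counts over both precipitates. Prdx6b, Zfp616 and Vkorc1 had 1 count over the precipitates and Cited1 had 2. Their inputs were 58.3, 46.4, 32.2 and 44.8 times the precipitates, with 95% counting intervals from 10.3 to 2314, 8.21 to 1844, 5.66 to 1283 and 12.3 to 372. Aldoart2 and Prdx6b are copies of Aldoa and Prdx6, so reads may have been split between copy and parent.

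Longer genes were more often higher and shorter genes more often lower than input. Genes tested were divided into quintiles by the distance from RefSeq start to end in GRCm38, introns included. In the shortest quintile, 0.334 to 9.19 kb, 6.32% of genes were higher and 76.1% lower than input, with a median log2 fold change of -1.92. In the next quintile 7.26% were higher and 56.5% lower, and in the middle one 15.9% and 28.2%. The next longer one had 45.5% higher and 8.09% lower. In the longest quintile, 85.7 to 2390 kb, 83.4% were higher and 3.05% lower, with a median of 2.05. The order also held at equal input level. In the lowest, middle and highest tercile of input CPM, the shortest quintile had medians of -1.12, -1.90 and -2.47 and the longest quintile medians of 2.62, 2.04 and 1.37. Histone genes, which are short and high, ran against it, and without them 77.5% of the shortest quintile were lower and 4.68% higher. Against IgG the medians of the quintiles were -0.66, -0.27, -0.04, 0.22 and 0.57, a smaller range in the same order. Across genes, Spearman's rho between span and log2 fold change was 0.713 against input and 0.655 against IgG. These 2 values share the CPEB4 precipitates, and genes are not independent replicates. Taken singly, the first and second CPEB4 precipitate gave rho of 0.717 and 0.712 over the mean input. The median span was 90.8 kb among genes higher than input and 10.5 kb among genes lower. Of the lists described above, oxidative phosphorylation genes had a median span of 7.28 kb and ribosomal protein genes 3.17 kb, while autism risk genes had 80.0 kb and transcription and chromatin regulators 134 kb. The sources used here do not say whether reads in introns were counted, and the part of span in the differences of the gene groups was not tested.

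**Figure D4:**
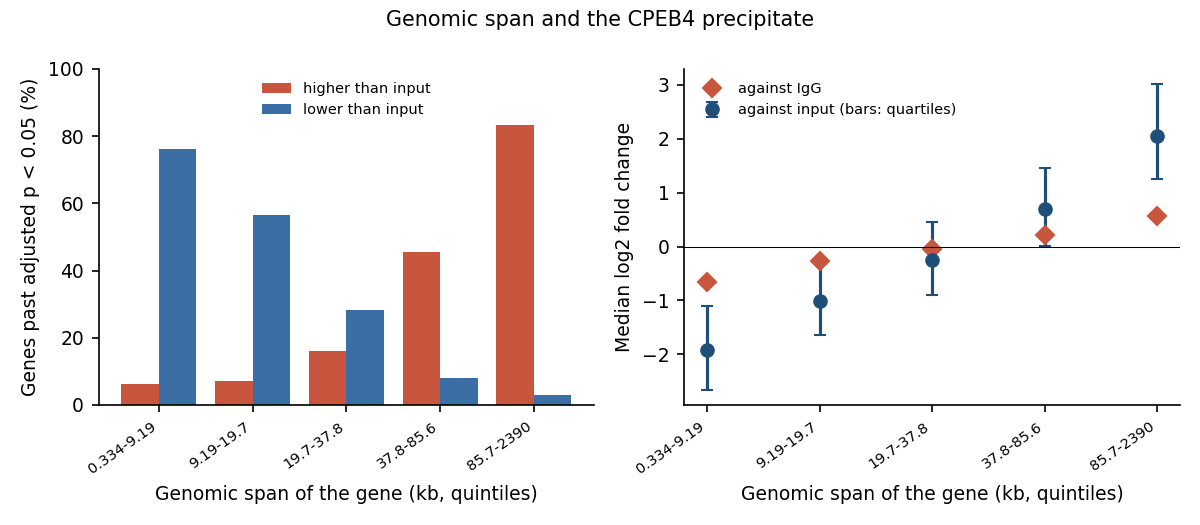
Left, share of genes (y axis, percent) higher (red) or lower (blue) than input at an edgeR adjusted p below 0.05, in quintiles of genomic span (x axis, kb). Right, median log2 fold change (y axis) in the same quintiles against input (circles, bars from the lower to the upper quartile) and against IgG (diamonds); the share of higher genes runs from 6.32% in the shortest to 83.4% in the longest quintile, and the input medians run from -1.92 to 2.05.

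Few genes stood above both input and IgG. Against IgG, 11754 genes were tested, of which 72 were higher (0.613%) and 146 lower (1.24%), together 1.85%, and 2512 had an unadjusted p below 0.05. Of the 72 genes, 70 were also higher than input, which is 97.2% of those higher than IgG and 1.66% of those higher than input, and both comparisons share the CPEB4 precipitates. Both precipitates lay above both IgG libraries for 27.7% of the 13286 genes and below them for 25.2%, and above all input and IgG libraries for each of the 70. Among those with a mean of 50 or more counts in the CPEB4 precipitates, ranked by the smaller of the 2 differences, 9 of the first 10 were Bnc2, Lrmda, Eda, Hivep3, Nhs, Lrrtm4, Nkain3, Esrrg and Atxn7l1. Eda, the TNF-family ligand ectodysplasin (mm10 chromosome X, 99975606 to 100400760), had 388 and 209.8 CPM in the CPEB4 precipitates, 69.6 and 34.6 with IgG and 18.7 and 12.7 in the inputs. Its log2 fold change was 4.19 over input (SE 0.39, edgeR adjusted p = 9.17e-08) and 2.54 over IgG (SE 0.39, edgeR adjusted p = 0.0311). Esrrg, an orphan nuclear receptor (mm10 chromosome 1, 187608510 to 188214885), had 75.4 and 71.6 CPM in the CPEB4 precipitates, 17.2 and 18.7 with IgG and 3.35 and 0.777 in the inputs. It differed by 5.05 from input and by 2.02 from IgG (SE 0.29, edgeR adjusted p = 0.0241). Lrrtm4, a postsynaptic organizer of excitatory synapses (mm10 chromosome 6, 80018858 to 80810162), had 93.8 and 62.7 CPM in the CPEB4 precipitates, 15.4 and 19.5 with IgG and 6.21 and 2.45 in the inputs. Here the differences were 4.10 and 2.14 (edgeR adjusted p = 2.18e-07 and 0.0241). All input and IgG libraries lay below both CPEB4 precipitates in these 3 genes, which the rule for naming them required.

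Nkain3, a protein that interacts with the sodium pump (mm10 chromosome 4, 20111029 to 20780709), had 1477 and 964 CPM in the CPEB4 precipitates, 363 and 236 with IgG and 30.7 and 11.0 in the inputs. Its difference from IgG was 2.03 (SE 0.36, edgeR adjusted p = 0.0349), and without the second IgG library the adjusted p was 0.0583, in a range from 1.23e-06 to 0.620 over the alternatives. Hivep3, a zinc finger transcription factor, had 140.2 and 139 CPM in the CPEB4 precipitates, 46.8 and 17.1 with IgG and 13.0 and 13.4 in the inputs (edgeR adjusted p = 0.0349 against IgG). The precipitates of Hivep3 differed little from each other, while its IgG libraries differed more than 2-fold. Lrmda, a leucine-rich repeat protein of melanocyte differentiation, had 103 and 104 CPM in the CPEB4 precipitates, 26.5 and 5.84 with IgG and 5.96 and 3.05 in the inputs (log2 fold change 2.78, SE 0.48, edgeR adjusted p = 0.0349 against IgG). Nhs, an actin regulator, had 51.0 and 30.4 CPM in the CPEB4 precipitates, 8.00 and 9.73 with IgG and 2.51 and 1.37 in the inputs (log2 fold change 2.17, SE 0.37, edgeR adjusted p = 0.0349 against IgG), and Atxn7l1 had 32.9 and 38.9 CPM in the CPEB4 precipitates, 12.3 and 6.23 with IgG and 4.68 and 2.99 in the inputs (log2 fold change 2.01, SE 0.38, edgeR adjusted p = 0.0367 against IgG). Bnc2, a zinc finger protein, was low throughout, with 12.5 and 8.67 CPM in the CPEB4 precipitates, 0.616 and 1.95 with IgG and 0.444 and 0 in the inputs (log2 fold change 2.87, SE 0.59, edgeR adjusted p = 0.0436 against IgG). Without the first CPEB4 precipitate its adjusted p was 0.145, in a range from 0.000121 to 0.620 over the alternatives.

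The 70 genes had a median log2 fold change of 3.57 over input and 1.53 over IgG. Their median span was 352 kb, with 66 of 70 over 100 kb (94.3%), against 16.9% of all genes tested. Among the quintiles of span, 68 of the 72 genes higher than IgG fell in the longest. Outside those already described and chosen after their values were seen, several encode receptors and adhesion proteins of neurons and glia. Robo2, an axon guidance receptor, differed by 4.17 and 1.72 from input and IgG. Grik2, a kainate receptor subunit, differed by 4.65 and 1.66, and Kcnq5, a potassium channel, by 5.57 and 1.71. Tenm3, a teneurin, differed by 4.03 and 1.36, and Cdh13, a cadherin, by 3.76 and 1.51. Others encode transcription factors, such as Rora (5.56 and 1.79), Tshz2 (3.35 and 1.33) and the chromatin protein Hmga2 (3.53 and 1.61). The number of genes that passed against IgG depended on the libraries and the fit. It was 64 higher and 53 lower without the first CPEB4 precipitate, 198 and 478 without the second, 132 and 120 without the first IgG library and 108 and 492 without the second. Scaling by library totals alone gave 89 higher and 75 lower, so that 54.3% of the genes called were higher instead of 33.0%. When all 8 libraries shared 1 estimate of the spread, edgeR called 0 genes in either direction against IgG, with 1001 at an unadjusted p below 0.05. In that shared fit Eda, Esrrg and Lrrtm4 each had an edgeR adjusted p of 0.620 against IgG. The log2 fold change against IgG stayed positive for all 70. They were chosen as higher than IgG in these same libraries, so that sign is no support. DESeq2, run on the 4 libraries compared, called 268 higher and 314 lower. Of the 70 genes, 66 still passed against IgG with DESeq2 and 7 with the replicate number as a block. With 1 CPEB4 precipitate or 1 IgG library left out, between 25 and 63 of the 70 still passed.

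**Figure D5:**
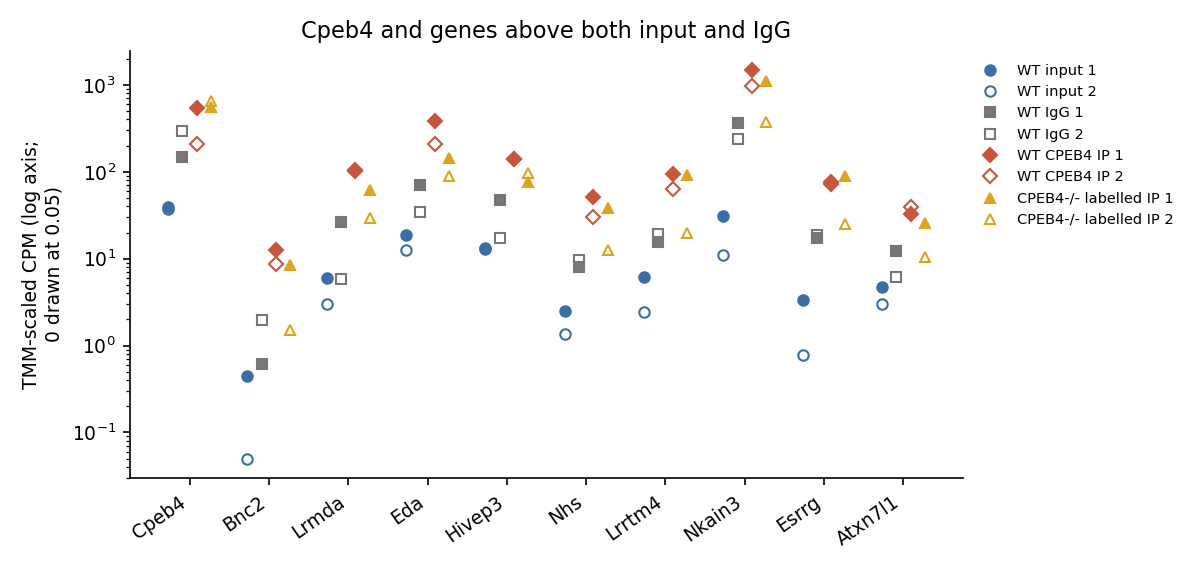
Scaled level (y axis, TMM-scaled CPM on a log axis, 0 drawn at 0.05) of Cpeb4 and 9 of the 10 genes with the largest smaller difference over input and IgG at a mean of 50 or more precipitate counts (x axis), 1 symbol for each of the 8 libraries. In the 9 genes both wildtype CPEB4 precipitates lie above the input and IgG libraries, which the rule for naming these genes required. For Cpeb4 the wildtype CPEB4 precipitates (539 and 207 CPM) overlap the IgG libraries (147 and 294 CPM).

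In the precipitates labelled CPEB4-/- the medians of these gene sets also lay away from input. For the 70 genes the median log2 level over the mean input was 3.69 and 3.41 in the wildtype CPEB4 precipitates, 3.40 and 2.28 in those labelled CPEB4-/- and 2.00 and 1.72 with IgG. Of the 70 genes, 70 lay above both IgG libraries in the first and 42 in the second library labelled CPEB4-/-. Over all genes tested the shares were 44.2% and 30.8%, and since the 70 were chosen with low IgG levels, part of their count is fixed by that choice. The 4207 genes higher than input had medians of 1.90 and 1.77 in the wildtype CPEB4 precipitates, 1.23 and 1.38 with IgG and 2.10 and 1.29 in the libraries labelled CPEB4-/-. The 4569 lower genes had -1.76 and -1.54, -1.12 and -1.34 and -1.98 and -1.18. The pair of libraries labelled CPEB4-/- differed from each other more than any other pair, with an SD of the log2 difference across genes of 1.20, against 0.549 for the wildtype CPEB4 precipitates, 0.568 for the inputs and 0.782 for IgG. The genes used took 57.1% of counts in the first of them and 20.1% in the second.

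The single-cell libraries of cultured neural stem cells gave a second readout of these genes, outside the immunoprecipitation. BMP4, which brings these cells into quiescence, and EGF, which keeps them dividing, were each represented by 1 library, with 887 and 1410 cells, so no test was made. Summed over cells, genes higher in the CPEB4 precipitate than in input had a median log2 ratio of BMP4 over EGF of 0.26, over 3535 genes with 10 or more counts. The median was -0.03 for the 4381 lower genes, 0.17 for the 4170 that did not pass and 0.12 for all genes tested. A level at least 2-fold higher with BMP4 was found for 25.7% of the higher genes, 14.8% of the lower genes and 20.6% of all. Among the 63 of the 70 genes with enough counts the median was 0.57. Nhs had 156 counts with BMP4 and 154 with EGF, or 9.01 and 4.58 CPM of the library. Atxn7l1 had 14.1 and 3.99 CPM, whereas Hivep3 had 10.8 and 22.7. Cpeb4 itself had 44.6 CPM with BMP4 and 25.5 with EGF. Bnc2 had no count in either library, and Lrmda had 5 with BMP4 and 0 with EGF.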

How the data were processed

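All values used are whole-number counts per gene and library, or per gene and cell, deposited by the authors. Bowtie2, SAMtools, Cell Ranger and the build mm10 are named per the submitters' processing notes. The sources used here do not give the versions and roles of these tools, the annotation, the strand setting or how the immunoprecipitation libraries were made. Groups came from the sample labels, and biotypes and spans from RefSeq annotation of GRCm38.p6. Of 27144 identifiers 98.2% had a symbol.

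Genes left out by the rule on the genes used were removed before library sizes were taken. Comparisons used edgeR 4.0.16 in R 4.3.3 (TMM, filterByExpr, quasi-likelihood, two-sided, Benjamini-Hochberg over all genes tested, threshold 0.05) on the 4 libraries compared. Per-library levels are CPM after TMM scaling of all 8 libraries, and log2 fold changes come from the fits. DESeq2 1.42.0, size factors, library totals, filters, a shared fit and leaving out each library were alternatives. The code was tested on simulated data. Total counts per library ran from 10054346 to 17466296. Counting intervals (95%, exact binomial) and floors of 3 counts cover counting error only. Medians of gene lists carry no test.

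Named genes were Cpeb4, the 12 largest log2 fold changes each way against input with a mean of 50 or more counts and no overlap, the 10 largest above both input and IgG, and the 2 of smallest p in each list with 3 or more genes called, passing over predicted genes. Some genes that this rule selects are left out of the text, and 1 is left out of the marker sums. The genes, lists and rules were chosen with earlier results of these data known, and the division by span was chosen after the fits were seen. The 27 gene lists cover the groups described in the report. In the culture libraries, counts were summed over cells and taken as CPM of the library with a pseudocount of 0.5 counts. The labels give 3 days in medium for both the BMP4 and the EGF library. Replicate numbers did not mark shared cultures in the labels.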

Additional observations from a re-analysis of the deposited data

Results flagged for a closer look

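The 2 precipitates labelled CPEB4-/- enter no test against input or IgG, and the report describes their levels only, apart from the fit on all 8 libraries, where they add to the estimate of the spread. Of the 13286 genes tested, 1268 (9.54%) lay above every wildtype input and IgG library in both of them. The named genes among these are given by the lower of their 2 scaled levels, and apart from Cpeb4 they were chosen because their input and IgG levels were low, so their place above those libraries is no support. Cpeb4 stood at 562 CPM, where the highest input or IgG library had 294 CPM. Among 9 genes named as most above input and IgG in the wildtype CPEB4 precipitates, Eda stood at 88.5 CPM, Hivep3 at 76.7 CPM and Nkain3 at 375 CPM in the lower of the libraries labelled CPEB4-/-. Lrmda stood at 29.7 CPM, Esrrg at 25.1 CPM and Lrrtm4 at 19.6 CPM. Nhs stood at 12.6 CPM. For Bnc2 and Atxn7l1 at least 1 library labelled CPEB4-/- was within the range of the IgG libraries.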

How the results depend on the processing

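Against input, the number of genes called stayed within 1.5 times under every alternative, from 3147 to 5200 higher and from 3578 to 5661 lower. Of 989 values of named genes against input under the alternatives, 988 kept their direction and their side of the threshold, and the exception was Tek, at 1.35 (edgeR adjusted p = 0.0717) without the first CPEB4 precipitate. The counts against IgG were less stable than those against input. They were 72 higher and 146 lower, and they became 418 and 616 without a filter on low counts, 268 and 314 with DESeq2, where 3874 adjusted p-values are missing, 157 and 377 with all genes of the table kept, and 0 and 0 with a fit on all 8 libraries. With library totals only 75 genes were lower. Leaving out 1 library gave 64 to 198 higher and 53 to 492 lower genes. With the replicate number as a block, 9 genes were higher and 21 lower than IgG, and 4278 higher and 4665 lower than input. The labels do not say that a number marks a shared culture. Deviations of libraries with the same number correlated at 0.08 between input and CPEB4 precipitate and at -0.23 between IgG and CPEB4 precipitate. The other pairs of groups ran from -0.42, between IgG and CPEB4-/-, to 0.31, between input and CPEB4-/-. Such correlations cannot decide whether a number marks a shared culture. A block with crossed numbers, added after seeing the data, gave 1112 and 1084. Removing genes with 0.01% or more of counts in both IgG libraries, also added after seeing the data, gave 92 and 170 against IgG. Of 143 values of named genes against IgG, 123 kept direction and side, 18 no longer passed, 1 newly passed, and 1 turned: Cpeb4, at -0.069 without the first CPEB4 precipitate, in a range from -0.069 to 1.32 with 1 library left out. The median BMP4 to EGF ratio of the higher genes was 0.34 with CPM of the genes used, against 0.26. The cause of these changes was not tested. The planned share of genes with a CPEB element in the 3′ untranslated region was not run. With 2 libraries a group, and with 18.8% to 24.1% of IgG counts on the genes used, low genes are limited by counting error.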
